A study of Mus musculus with 6 samples.

Results

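Chemokines are small secreted proteins that bind receptors coupled to inhibitory G proteins and set the direction in which leukocytes move. CC and CXC chemokines are named for the spacing of their first cysteines. Cxcr4, the receptor of the chemokine Cxcl12, holds leukocytes in the bone marrow and guides their exchange with the blood. The genes described here are 6 chemokines, Ccl6, Ccl9, Ccl3, Ccl4, Cxcl2 and Cxcl16, with the receptor Cxcr4. They were named in a list and found by their symbols, 7 of 7, among the 55401 Ensembl genes of the deposited table. They were selected on their measured CPM levels in these same libraries, so those levels and the differences between the sets are given as a description, with no test.

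The libraries came from mice of a model of atopic dermatitis, with a wild-type background in the protocol. Both ears were painted daily with MC903, a vitamin D analogue (2 nmol, dissolved in 10 µL ethanol, days 0 to 6), and controls with the solvent. The labels name 2 sets of 3 libraries, A and B, and do not say which was treated with MC903, so differences are written as B relative to A. The labels give no age. They speak of pooled RNA and do not tie a library to a mouse, so a p-value here reflects the spread over libraries, which may be technical. The sort gate was for live CD45+ cells without lineage markers that carried CD49b and FcεRIα or IgE, which defines basophils. The labels name blood as the tissue, while the design text names ear skin, and the descriptions name 10x Genomics where the protocol names Smart-seq2, a full-length cDNA method for small inputs.

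Total counts ran from 46137963 to 63956911 per library, far more than the read yield stated in the labels. Genes with at least 1 count numbered 9242, 9845 and 11281 in A and 11141, 12176 and 14066 in B, fewest in A replicate 1, and the part of this in the results below was not tested. Over all genes and libraries the count 4 occurred 5211 times, the count 3 only 819 times and the count 5 660 times, so the number of fragments behind a count is not known. Levels are in CPM, the count scaled to the same total in every library, and 3 counts, used as the floor, equalled 0.0469 to 0.0650 CPM. Set A went against the basophil label: Fcer1a, the IgE-binding receptor chain, was at 0.0726, 0 and 0 CPM in the libraries labelled A replicates 1, 2 and 3, against 216, 94.4 and 41.9 CPM in set B. The summed level of 10 basophil markers was 39.7 to 385 CPM over set A and 1449 to 3220 CPM over set B. Not every marker was as low in A as Fcer1a. Hdc was at 38.0, 62.2 and 267 CPM in A and at 685, 467 and 359 CPM in B. Gata2 had the higher mean in A, at 53.9 ± 58.3 CPM against 22.9 ± 20.9 in B (SD, n = 3 each), with overlap. Of the 8 markers tested by edgeR, 7 had a fitted log2 difference above 0 and 1, Gata2, below. Markers of neutrophils (2401 to 9665 CPM in A, 12484 to 23198 in B), of monocytes and macrophages (35372 to 42704 in A, 25069 to 34110 in B) and of B cells (3401 to 5236 in A, 3725 to 4981 in B) were present in all 6 libraries. Levels below are therefore not read as those of basophils, and no comparison is left without set A. In bulk RNA, fewer cells of a type cannot be told apart from less RNA per cell.

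Of the 7 genes, Ccl6 was the most abundant per length of exon, and it stood higher in all 3 libraries of B than in any of A. Cxcl2 stood the other way, with its 3 values in A above the 3 in B. Ccl9, Ccl3, Ccl4, Cxcl16 and Cxcr4 overlapped between the sets. Thus 1 of 7 genes was without overlap and higher in B, where 10.2% of the 9196 genes tested were, and 1 of 7 was without overlap and lower in B, where 3.91% were. The levels of these genes were known when the list was made, so nothing is read from these counts. All 7 genes passed the filter on low counts.

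**Figure D1:**
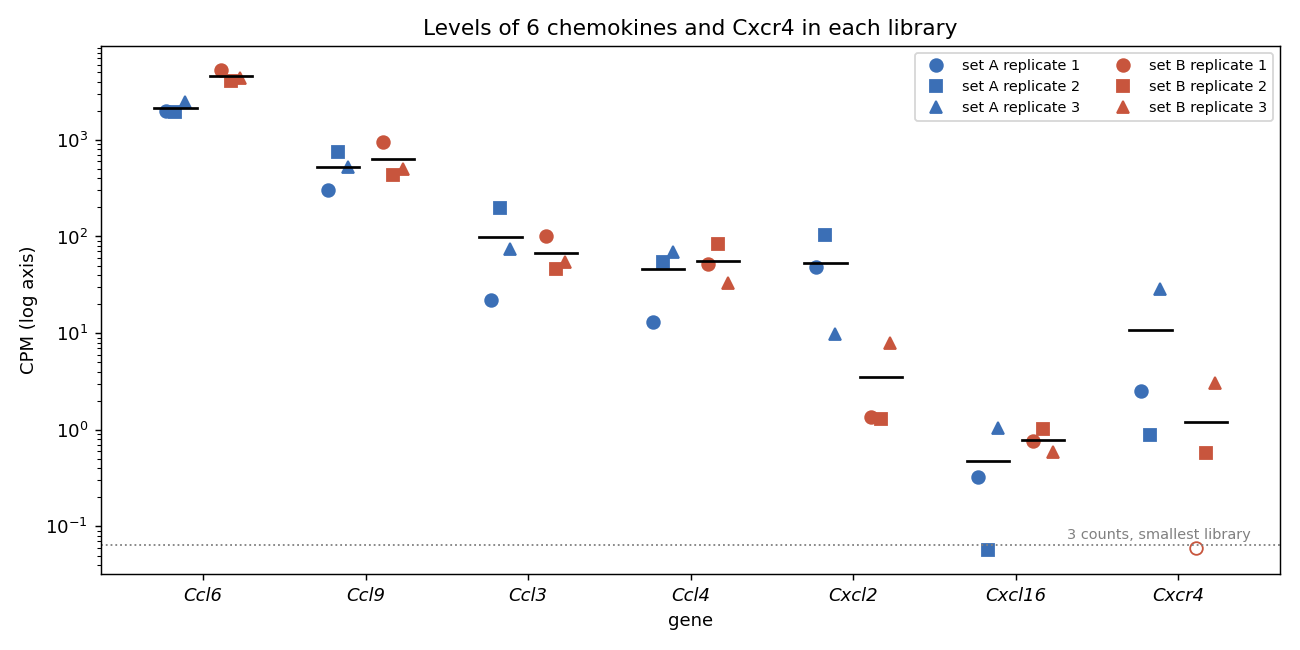
CPM of each gene in each library on a log axis, with set A in blue, set B in red, a marker shape for each replicate and a black bar at the set mean. Ccl6 in B lay between 4026 and 5284 CPM, above its 3 values in A, and the only open symbol is Cxcr4 in B replicate 1, at 0 counts and drawn at that library's floor of 3 counts. The dotted line is that floor in the smallest library.

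Ccl6 and Ccl9 are rodent CC chemokines of myeloid cells that act through the receptor Ccr1. Ccl6 (ENSMUSG00000018927) was at 1966, 1927 and 2486 CPM in A replicates 1, 2 and 3, and the B libraries, in the same order, had 5284, 4026 and 4324 CPM. The spread within a set was small, the highest value being 1.29 times the lowest in A and 1.31 times in B, and the sets did not overlap. Mean Ccl6 was 2126 ± 312 CPM over set A and 4545 ± 658 over set B (SD, n = 3 each), a ratio of 2.14. Leaving out any one library kept the log2 ratio of means between 0.97 and 1.22. Among the 117 genes tested with a mean of at least 1000 CPM, 14 (11.97%) were likewise higher in B without overlap.

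Ccl9 (ENSMUSG00000019122), the neighbour of Ccl6 on chromosome 11, did not share that step. It was at 305, 744 and 528 CPM in A and at 956, 431 and 497 CPM in B. Each set held 1 high value, A replicate 2 and B replicate 1, and the lowest value of all was A replicate 1. Mean Ccl9 was 526 ± 220 CPM over set A and 628 ± 286 over set B (SD, n = 3 each). The log2 ratio of 0.26 changed its sign to -0.18 without B replicate 1 and to -0.02 without A replicate 1, so the data give it no direction.

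The promoters of this neighbouring pair are shown because one gene differed between the sets without overlap and the other did not. RefSeq promoter sequence on GRCm38.p6 was at hand for 5 of the 7 genes. Each run below is the 250 bases before the annotated start, 5′ to 3′ on the gene's own strand, with matches to 4 motifs in capitals. The motifs, chosen with the sequences in view and searched on both strands, were GGAAGT (the core bound by ETS factors such as PU.1), TGANTCA (AP-1), TATAAA (the TATA box) and, for NF-kB, GGGA followed by any base and TTTCC.
Ccl6, chr11:83593088-83593337, minus strand: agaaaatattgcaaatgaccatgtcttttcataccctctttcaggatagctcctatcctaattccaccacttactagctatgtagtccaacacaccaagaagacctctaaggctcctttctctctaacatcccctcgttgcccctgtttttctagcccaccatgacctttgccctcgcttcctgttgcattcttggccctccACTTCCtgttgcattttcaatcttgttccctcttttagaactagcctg
Ccl9, chr11:83578637-83578886, minus strand: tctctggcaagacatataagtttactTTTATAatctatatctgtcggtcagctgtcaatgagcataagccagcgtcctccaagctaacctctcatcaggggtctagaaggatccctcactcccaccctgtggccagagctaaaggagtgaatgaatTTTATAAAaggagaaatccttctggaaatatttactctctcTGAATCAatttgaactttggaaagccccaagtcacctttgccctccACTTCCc

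Both windows held 1 ETS match, which begins 48 bases before the start in Ccl6 and 7 bases before it in Ccl9. It lies in a shared run of 13 bases, the longest that the windows have in common. Ccl9 also held 1 AP-1 match and 3 TATA matches, of which 2 overlap, and Ccl6 held neither motif. Of 32851 windows of the same length, 19.7% held the ETS match, 6.75% the AP-1 match and 12.4% the TATA match. A match describes the letters of the window and is not a bound site.

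Ccl3 and Ccl4, the macrophage inflammatory proteins 1-alpha and 1-beta, are induced quickly in activated myeloid and lymphoid cells. Ccl3 acts in part through Ccr1. Ccl3 (ENSMUSG00000000982) was at 22.1, 198 and 73.3 CPM in A and at 100.4, 46.4 and 53.8 CPM in B. Set A held both the lowest and the highest value, 8.97 times apart. Mean Ccl3 was 97.8 ± 90.5 CPM over set A and 66.9 ± 29.3 over set B (SD, n = 3 each), and the log2 ratio of -0.55 turned to 0.49 without A replicate 2.

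Ccl4 (ENSMUSG00000018930) was at 13.1, 55.0 and 68.9 CPM in A and at 52.0, 83.3 and 33.3 CPM in B. The sets overlapped, with the highest value in B replicate 2 and the lowest in A replicate 1, which was lowest for Ccl9, Ccl3 and Ccl4 alike. Mean Ccl4 was 45.7 ± 29.0 CPM over set A and 56.2 ± 25.3 over set B (SD, n = 3 each). The log2 ratio of 0.30 turned to -0.14 without A replicate 1 and to -0.10 without B replicate 2. Ccl3 and Ccl4 sit next to each other on opposite strands, and their highest libraries were A replicate 2 and B replicate 2 respectively.

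Cxcl2, the macrophage inflammatory protein 2, draws neutrophils through Cxcr2. Cxcl2 (ENSMUSG00000058427, chromosome 5) was at 48.2, 103 and 9.73 CPM in A and at 1.37, 1.29 and 7.93 CPM in B. The sets did not overlap, but A replicate 3 and B replicate 3 lay close together. The B values rest on 68, 76 and 507 counts. Mean Cxcl2 was 53.8 ± 47.1 CPM over set A and 3.53 ± 3.81 over set B (SD, n = 3 each), 15.3 times higher in A. The log2 ratio of -3.93 was -3.04 without A replicate 2 and -5.34 without B replicate 3. Genes at this level were often near 0 in single libraries: among the 5285 genes tested with a mean of 10 to 100 CPM, 27.99% of library values were under 1 CPM.

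The Cxcl2 promoter is shown because it held the only match to the NF-kB letters given above among the 5 windows.
Cxcl2, chr5:90903649-90903898, plus strand: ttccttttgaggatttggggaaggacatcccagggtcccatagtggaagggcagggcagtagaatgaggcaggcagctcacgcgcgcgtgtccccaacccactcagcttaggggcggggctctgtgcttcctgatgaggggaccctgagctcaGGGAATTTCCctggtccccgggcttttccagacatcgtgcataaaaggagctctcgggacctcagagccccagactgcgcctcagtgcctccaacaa
The capitals mark that match, which begins 97 bases before the start and was found in 0.356% of all windows. None of the other 3 motifs had a match in this window. Here too a match is not a bound site, and its part in the Cxcl2 levels was not tested.

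Cxcl16 is made as a membrane protein and is released by the protease Adam10, and its receptor is Cxcr6. Cxcl16 (ENSMUSG00000018920) was low throughout, at 0.327, 0.0567 and 1.04 CPM in A and at 0.764, 1.01 and 0.594 CPM in B. This is 3 to 60 counts per library, with A replicate 2 at the floor of 3 counts. The sets overlapped. Mean Cxcl16 was 0.475 ± 0.508 CPM over set A and 0.791 ± 0.212 over set B (SD, n = 3 each). The log2 ratio of 0.74 was 0.21 without A replicate 2 and 2.04 without A replicate 3. Exons of Cxcl16 overlap those of Zmynd15 on the opposite strand in GENCODE M21, and the use of strand in counting is not stated, so these few counts cannot be assigned to either gene with certainty.

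Cxcr4 (ENSMUSG00000045382, chromosome 1) was also low, at 2.54, 0.889 and 28.9 CPM in A and at 0, 0.575 and 3.05 CPM in B. A replicate 3 stood far above the other 5 libraries. For the 0 in B replicate 1, 3 counts would be 0.0603 CPM, and the true limit is higher if 1 fragment gave several counts. Mean Cxcr4 was 10.8 ± 15.7 CPM over set A and 1.21 ± 1.62 over set B (SD, n = 3 each). The log2 ratio of -3.16 was -0.51 without A replicate 3 and -5.23 without B replicate 3, so its size rests on single libraries.

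**Figure D2:**
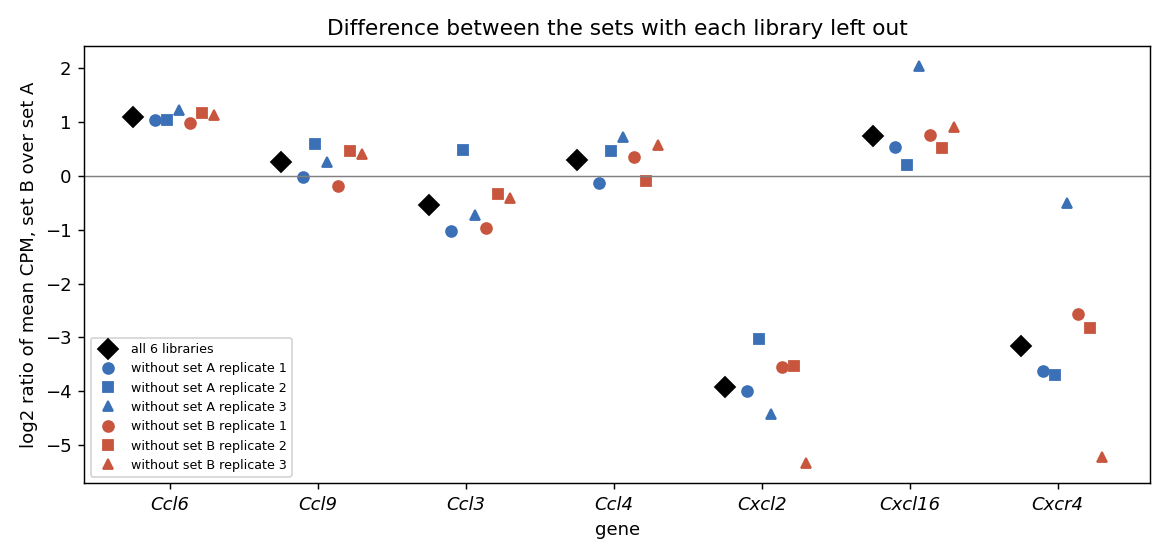
The log2 ratio of mean CPM, set B over set A, for each gene with all 6 libraries (black diamonds) and with each library left out (coloured symbols). The symbols of Ccl6 stay between 0.97 and 1.22 and those of Cxcl2 between -5.34 and -3.04, while those of Ccl9, Ccl3 and Ccl4 lie on both sides of 0.

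Per length of exon, which allows levels of different genes to be set side by side, the order was Ccl6, Ccl9, Ccl3, Ccl4, Cxcl2, Cxcr4 and Cxcl16. Mean levels per kb of exon over the 6 libraries were 1858 CPM for Ccl6, 189 for Ccl9, 107 for Ccl3, 77.2 for Ccl4, 13.9 for Cxcl2, 3.32 for Cxcr4 and 0.209 for Cxcl16. Ccl6 was above Ccl9 in 6 of 6 libraries, with ranges that did not touch (1073 to 2944 and 100.1 to 314 CPM per kb). Every other pair of neighbours in the order overlapped in range. Ccl9 exceeded Ccl3 in 5 of 6 libraries, Ccl3 exceeded Ccl4 in 4, Ccl4 exceeded Cxcl2 in 5, Cxcl2 exceeded Cxcr4 in 5 and Cxcr4 exceeded Cxcl16 in 4. The exon lengths are from GENCODE M21, which may differ from the annotation used for counting.

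**Figure D3:**
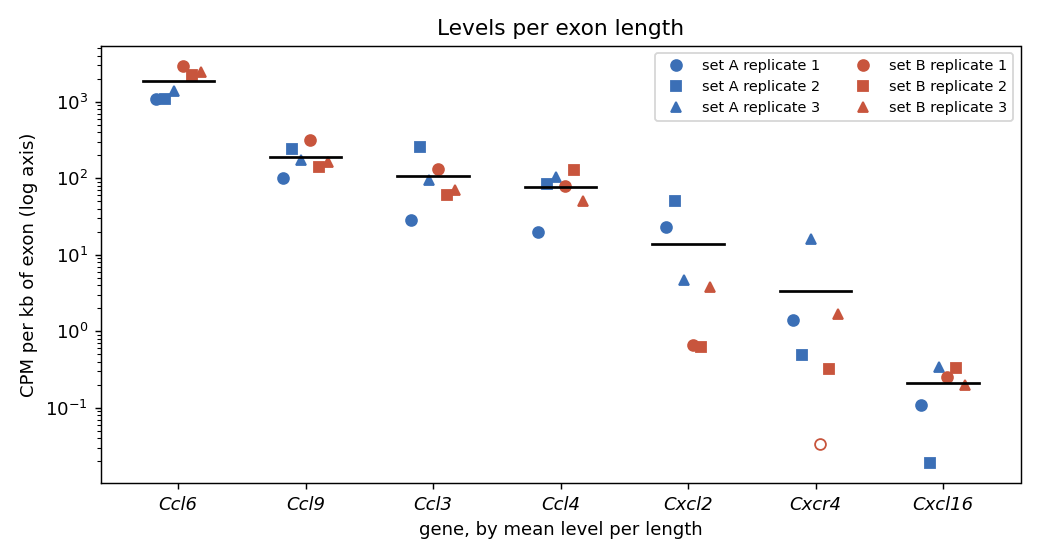
CPM per kb of exon in each library on a log axis, genes ordered by their mean (black bar), set A in blue and set B in red, with 1 open symbol for the library at 0 counts, drawn at its floor of 3 counts. Ccl6 lies apart from the rest, from 1073 to 2944 CPM per kb.

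The 38 chemokine ligands searched, the 6 above and 32 others, summed to 4370 ± 541 CPM over set A and 6106 ± 1067 over set B (SD, n = 3 each), with no overlap. Without Ccl6 the sum was 2244 ± 412 CPM over set A and 1562 ± 421 over set B, and the sets overlapped. Ccl6 took 52.2%, 42.5% and 51.7% of the ligand counts in A and 72.1%, 74.9% and 77.0% in B, shares that are not corrected for length. The sums were apart with Ccl6 and overlapped without it.

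Of the 17 other CC ligands, 4 were abundant enough to test and 0 passed in either direction, where edgeR's quasi-likelihood test called 0.0217% of all genes tested higher in B and 0.0% lower. At an unadjusted p under 0.05 edgeR counted 1 lower and 0 higher, where it counted 1.32% and 5.05% of all genes, and DESeq2 called 0, as did limma-voom, which called 2.03% of all genes tested higher in B and 0.0761% lower. That gene was Ccl5, also called RANTES, which T cells and NK cells make, and which lies next to Ccl9. Ccl5 was at 823, 668 and 564 CPM in A and at 330, 375 and 338 CPM in B. The fitted log2 difference was -1.10 (SE 0.26, adjusted p = 0.508 by edgeR), lower in 3 of 3 libraries of B without overlap. Beside it, the summed T cell markers were at 740 to 1111 CPM over set A and 250 to 400 over set B. Of the 9, 3 were lower in B without overlap, where 3.91% of all genes tested were, and Cd4 was at 0 throughout. The summed NK cell markers overlapped, at 918 to 2633 CPM over set A and 1041 to 1551 over set B. Of the 9 NK cell markers, 0 were without overlap, where 10.2% of all genes tested were higher in B and 3.91% lower. The part of these cells in the Ccl5 values was not tested.

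The remaining CC ligands were low or present in single libraries. Of the 17, 6 were at 0 in all libraries, among them the eosinophil attractant Ccl11 and the Th2 cell attractant Ccl17. Ccl22, another ligand of Ccr4, was at 56.8 CPM in B replicate 1 and at most 0.0676 elsewhere. Ccl28 was at 58.0 CPM in A replicate 2 and at most 0.0867 elsewhere, and Ccl25 was at 32.2 CPM in A replicate 1 and at most 3.46 elsewhere. Ccl7, a monocyte attractant, was at 44.9 CPM in A replicate 3 and at most 0.913 elsewhere, and Ccl8 at 18.1 CPM in B replicate 2 and at most 0.130 elsewhere.

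Of the 15 other CXC, XC and CX3C ligands, 3 were tested and 0 passed by edgeR. At an unadjusted p under 0.05 edgeR counted 1, lower in B, where it counted 1.32% of all genes, and DESeq2 and limma-voom called 0. It was Ppbp, the precursor of platelet basic protein, at 301, 627 and 471 CPM in A and at 262, 256.5 and 151.5 CPM in B (fitted log2 difference -1.16, SE 0.36, adjusted p = 0.508 by edgeR). Pf4, platelet factor 4, was at 219, 157 and 522 CPM in A and at 239, 118 and 202 CPM in B, and overlapped. The other 6 platelet markers summed to 170 to 530 CPM over set A and 197 to 470 over set B, with overlap. Of these, Gp6, a collagen receptor of platelets, was without overlap and higher in B, at 0, 0.151 and 0 CPM in A and at 46.7, 34.6 and 8.52 CPM in B. Cxcl12, the ligand of Cxcr4, was at 0 in all 6 libraries, as were 7 more of the list. Cxcl13, Cx3cl1 and Xcl1 each reached over 30 CPM in a single library and were at most 2.25 in the rest, and Cxcl10 was at most 0.362 in any.

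Receptors were uneven in the same way. Of 23 other chemokine receptors, 6 were tested and 0 passed by edgeR or by limma-voom, and 0 reached an unadjusted p under 0.05 by edgeR. DESeq2, which called 10.5% of the genes with an adjusted p higher in B and 0.949% lower, called 1 receptor lower. That was Cxcr5, the B cell follicle receptor, at 119, 0 and 59.6 CPM in A and at most 0.161 in B. Of the 23 receptors, 1 was without overlap and higher in B, where 10.2% of all genes tested were. It was Ccrl2, an atypical receptor that binds chemerin, at 0.653, 0.719 and 1.17 CPM in A and at 1.35, 56.2 and 23.4 CPM in B (fitted log2 difference 4.89, SE 2.17, adjusted p = 0.870 by edgeR). The summed level of the 23 was 521 to 711 CPM over set A and 734 to 1034 over set B, without overlap. The 711 CPM of A and the 734 CPM of B lay close, so the lack of overlap can turn on a single gene. Cx3cr1 alone was at 419 of the 734 CPM in B replicate 3, and Ccr1 was at 148 of 737 in B replicate 2. The median fitted log2 difference of the 6 tested was 0.78, beside -0.06 for all 9196 genes.

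The receptors of the ligands above were present for some and nearly absent for others. Ccr1, shared by Ccl6, Ccl9 and Ccl3, was at 152, 16.6 and 37.9 CPM in A and at 401, 148 and 74.8 CPM in B, overlapping between the sets (fitted log2 difference 1.42, SE 1.05, adjusted p = 1.00 by edgeR). Cxcr2, the receptor of Cxcl2 and a neutrophil gene, was at 115, 314 and 236 CPM in A and at 365.5, 319 and 100.3 CPM in B. Its fitted log2 difference was 0.15 (SE 0.58, adjusted p = 1.00 by edgeR), and the groups overlapped fully. Cxcr6 was at 70.5 CPM in A replicate 3 and at most 0.375 elsewhere, Cxcr1 was at 17.05 CPM in B replicate 2 and at 0 in the other 5, and Ackr3, the scavenging receptor of Cxcl12, was at 0 in all 6. Ccr3, the eosinophil and basophil receptor of eotaxins, was at 12.7 CPM in A replicate 2, at 5.39 in B replicate 3 and at 0 in the other 4.

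Among the other receptors with the highest levels, Ccr7, which guides cells to lymph nodes, was at 0.218 CPM in A replicate 1 and at 66.5 to 156 in the other 5 libraries. Ccr2, the receptor of classical monocytes, ran from 30.8 to 133 CPM over all libraries, with overlap. Cx3cr1, a marker of non-classical monocytes, was at 419 CPM in B replicate 3 and at 2.61 to 55.9 in the others. None of these passed by edgeR.

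**Figure D4:**
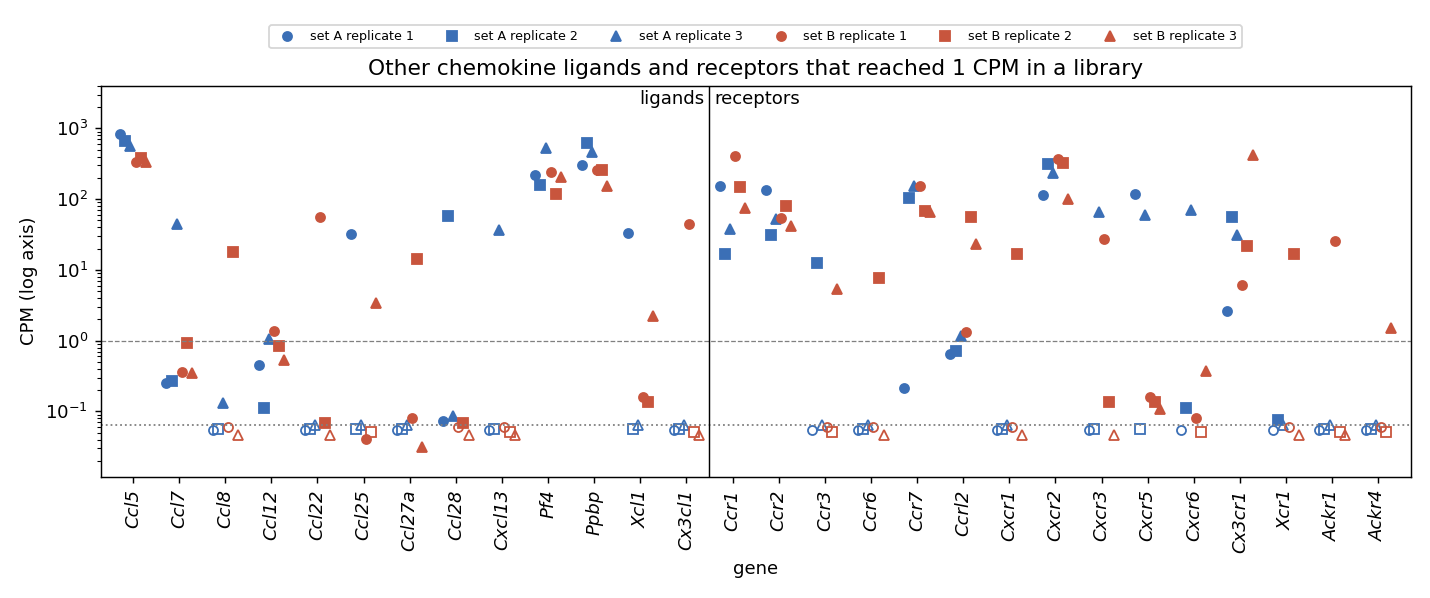
CPM in each library, on a log axis, of the other chemokine ligands (left) and receptors (right) that reached 1 CPM (dashed line) in at least 1 library, set A in blue and set B in red. Open symbols are libraries at 0 counts drawn at their floor of 3 counts, and the dotted line is the highest such floor. Ccl5, Pf4, Ppbp, Ccr1, Ccr2, Cxcr2 and Cx3cr1 were above 1 CPM in all 6 libraries, while many of the rest appear in 1 or 2 libraries.

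Signalling genes behind these receptors were unevenly detected, and 16 of 30 were at 1 CPM or more in all 6 libraries. Of 30 such genes, 28 were tested and 0 passed by edgeR in either direction, 0 reached an unadjusted p under 0.05, and limma-voom called 0. The median fitted log2 difference was -0.23, with 10 fitted values above 0 and 18 below, beside 4414 above and 4782 below among all genes tested. Gnai2, the inhibitory G protein chain of leukocytes, was at 808 ± 143 CPM over set A and 755 ± 72.7 over set B. Rac2, the GTPase that drives actin at the leading edge, was at 1403 ± 426 CPM over set A and 1766 ± 227 over set B, and Rgs2, which shortens G protein signals, at 996 ± 266 and 885 ± 255.7 (SD, n = 3 for each). Rassf5, which links Rap1 to integrins, and Gnb1, a G protein beta chain, ran from 206 to 504 and from 72.6 to 389 CPM over the 6 libraries, with overlap. DESeq2 called 1 gene higher in B, where it called 10.5% of the genes with an adjusted p. This gene was Plcb2, a phospholipase C, at 0 CPM in all of A and at 0, 14.1 and 41.2 CPM in B.

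Cd74, the class II invariant chain that also binds the cytokine Mif and pairs with Cxcr4, was at 7138 ± 1286 CPM over set A and 7858 ± 916 over set B (SD, n = 3 each). Its fitted log2 difference was 0.03 (SE 0.16, adjusted p = 1.00 by edgeR). Mif was at 99.1 ± 40.8 CPM over set A and 157 ± 117 over set B (SD, n = 3 each), with overlap. Both were present in every library, including B replicate 1, where Cxcr4 was at 0.

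Of 13 genes for shedding, trimming and binding of chemokines, 8 were tested and 0 passed by edgeR or limma-voom. Adam10, which sheds Cxcl16, was at 23.8, 38.9 and 11.9 CPM in A and at 0.121, 26.4 and 28.6 CPM in B. Srgn, the proteoglycan serglycin that holds chemokines in granules, was at 1946, 1852 and 2150 CPM in A and at 1883, 1509 and 1392 CPM in B. It was the 1 gene of the list with an unadjusted p under 0.05 (fitted log2 difference -0.42, SE 0.17, adjusted p = 0.711 by edgeR), and its sets overlapped. At that threshold edgeR counted 1.32% of all genes lower in B. DESeq2 called 1 gene higher in B, where it called 10.5% of the genes with an adjusted p. This gene was Adam17, at 0 in all of A and at 0, 59.9 and 28.6 CPM in B. Mmp8, a neutrophil collagenase that trims chemokines, was at 146, 30.5 and 13.2 CPM in A and at 490, 348 and 134 CPM in B, with overlap. Cd44 and Mmp9 ran from 138 to 426 and from 0.109 to 243 CPM, and Dpp4 and Rhbdf2 from 0 to 96.7 and from 0.0867 to 89.1 CPM, also with overlap.

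Early inducible genes were counted because Ccl3, Ccl4 and Cxcl2 are induced with them. Of 22, 20 were tested and 0 passed by edgeR or limma-voom, with a median fitted log2 difference of 0.11, 11 above 0 and 9 below. At an unadjusted p under 0.05 edgeR counted 2 higher in B (Dusp1 and Fosb) and 1 lower (Zfp36), where it counted 5.05% and 1.32% of all genes. DESeq2 called Ier3 higher in B, where it called 10.5% of the genes with an adjusted p. Dusp1, a phosphatase of MAP kinases, was at 868 ± 215 CPM over set A and 1615 ± 226 over set B (SD, n = 3 each; fitted log2 difference 0.81, SE 0.19, adjusted p = 0.508 by edgeR). Zfp36, which binds AU-rich elements and speeds the decay of cytokine and chemokine mRNA, was at 735 ± 105 CPM over set A and 500.2 ± 83.8 over set B (SD, n = 3 each; fitted log2 difference -0.66, SE 0.24, adjusted p = 0.617 by edgeR). Neither overlapped between the sets. Fosb, a partner of Jun in AP-1, was at 0.0726, 0.0757 and 0.260 CPM in A and at 0.261, 2.93 and 6.63 CPM in B (fitted log2 difference 4.53, SE 1.56, adjusted p = 0.558 by edgeR), with the sets nearly touching. Ier3 was at 61.9 CPM in B replicate 1, at 9.57 in B replicate 3 and under 1 CPM in the other 4 libraries. Junb, Fos, Nfkbia and Ier2 overlapped, with means of 586 to 848 CPM over set A and 643 to 939 over set B.

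Marker levels moved beside the 2 genes without overlap. With Ccl6, 6 of 10 basophil markers and 5 of 13 neutrophil markers were higher in B without overlap, where 10.2% of all genes tested were, and 0 of either list were lower, where 3.91% were. Ly6g was at 0 in all libraries. Also higher in B without overlap were 1 of 7 eosinophil markers (Il5ra) and 1 of 8 platelet markers (Gp6). With Cxcl2, 3 of 9 T cell, 2 of 6 erythroid and 2 of 12 monocyte and macrophage markers were higher in A without overlap, beside the same 3.91%. The same held for 1 of 9 dendritic cell markers (Flt3) and 1 of 8 platelet markers (Ppbp), and for 0 of 8 B cell and 0 of 9 NK cell markers. The monocyte pair was Lyz2 and Ly6c2, and a further marker of that list, F13a1, was without overlap in the other direction, at no more than 0.0726 CPM in A and at 136, 0.135 and 15.9 CPM in B. The summed erythroid markers were 270 to 630 CPM over set A and 109 to 179 over set B. The part of these cells in the Ccl6 and Cxcl2 values was not tested.

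**Figure D5:**
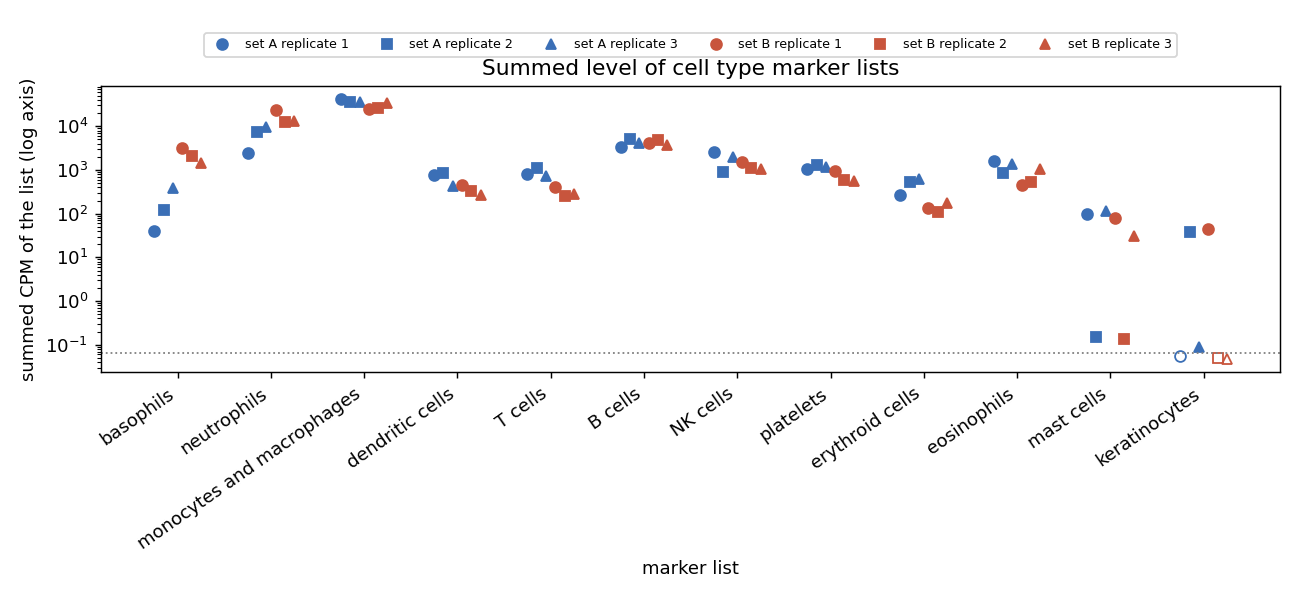
Summed CPM of each cell type marker list in each library, on a log axis, set A in blue and set B in red, with open symbols for sums of 0 drawn at the floor of 3 counts and a dotted line at the highest floor. Basophil and neutrophil sums are higher in B in all libraries, and monocyte, T cell, platelet and erythroid sums are higher in A. The monocyte sums overlap without Lyz2 (2711 to 3892 CPM for A, 2413 to 4364 for B), and the platelet sums overlap without Ppbp and Pf4.

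The genes with the pattern most like each member were sought among 1796 genes with a mean of at least 100 CPM, by the root mean square difference of centred log2(CPM + 1) over the 6 libraries. For Ccl6 they were Ndufa7 (0.13), Cox14 (0.15) and Sdhb (0.21), which are mitochondrial respiratory genes. For Ccl9 they were Lgals1 (0.15), Ndufs3 (0.17) and Mpeg1 (0.20), for Ccl3 Txn2 (0.37), Mpeg1 (0.39) and BC004004 (0.42), and for Ccl4 Mat2a (0.24), Tmem131l (0.25) and Eif2s3y (0.31). For Cxcl2 the nearest were Lyz1 (1.21), Cetn2 (1.25) and Vasp (1.28), and for Cxcr4 Get4 (0.92), Timm17b (0.95) and Ppp2r1a (0.96), none of them close. Both genes had means under the 100 CPM asked of candidates, at 28.7 and 5.99 CPM. So did Ccl3, Ccl4 and Cxcl16, at 82.3, 50.9 and 0.633 CPM, and the matches of Ccl3 and Ccl4 were closer. Genes tested at 100 to 300 CPM had a median ratio of highest to lowest library of 4.81. That ratio was 903 at 10 to 100 CPM and 199 at 1 to 10 CPM, so candidates tended to vary less than genes at lower levels. Whether this is why Cxcl2 and Cxcr4 lacked a close match was not tested. For Cxcl16 the nearest were Alox5ap (0.12), Rpl13a (0.15) and Clec4a3 (0.16), but levels under 1 CPM are flattened on this scale. Among the members the pair Ccl6 and Cxcl16 was nearest (0.45), followed by Ccl9 and Ccl3 (0.56) and by Ccl6 and Ccl9 (0.62), while Ccl6 and Cxcl2 were farthest (2.58). With so many candidates and 6 libraries these are descriptions only.

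Of the 7 genes, 4 lie side by side on chromosome 11, in the order Ccl9, Ccl6, Ccl3 and Ccl4 with Ccl5 before them. This run held the CC ligands that were above 1 CPM in every library. Their transcripts were distinct: the longest exact run shared by any pair of the members was 25 bases, between Ccl6 and Ccl9, against reads of 150 bases. Within the run the sets differed in opposite ways, Ccl6 being higher and Ccl5 lower in B without overlap, with Ccl9, Ccl3 and Ccl4 overlapping.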

How the data were processed

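RNA-seq was done on 6 libraries labelled as sorted mouse basophils, 3 in set A and 3 in set B, by Smart-seq2 with paired reads of 150 bases, per the labels' protocols. The authors deposited raw counts per Ensembl gene, 1 column per library. Cutadapt 1.9, HISAT2 2.2.1 and DESeq2 are named in the submitters' processing notes. The sources used here do not give the counting program, build, annotation or strand setting. Smart-seq2 has no molecular identifiers, so floors cover counting error only. Symbols were found for 55141 of 55401 identifiers.

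CPM is the count divided by the column total. Set B was compared with set A over all libraries by edgeR 4.0.16 in R 4.3.3 (filterByExpr, TMM, robust glmQLFit, glmQLFTest, Benjamini-Hochberg, threshold 0.05), leaving 9196 genes. DESeq2 1.42.0 and limma 3.58.1 (voom with quality weights) were alternatives. The procedure was tested on simulated data. The members and all lists were chosen with earlier results of these data known. Besides the members, the text names up to 6 genes of highest mean CPM in each of 6 pathway lists, receptors and partners of the members (1 of these is not reported here), genes past a threshold, and the 3 genes of most like pattern. Other genes were chosen after their values were seen.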

Additional observations from a re-analysis of the deposited data

How the results depend on the processing

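The ratio of Ccl6 between the sets kept its direction and stayed within the replicate spread under all 11 alternatives, and so did that of Cxcl2. With the median in place of the mean the log2 ratio of Ccl9 turned to -0.088 and that of Ccl4 to -0.081, and Cxcl16 moved to 1.23. Cxcl16 was 0.33 as a difference of mean log2(CPM + 1), and with a replicate block. Leaving out each library gave log2 ratios of 0.97 to 1.22 for Ccl6, -0.18 to 0.59 for Ccl9, -1.02 to 0.49 for Ccl3, -0.14 to 0.72 for Ccl4, -5.34 to -3.04 for Cxcl2, 0.21 to 2.04 for Cxcl16 and -5.23 to -0.51 for Cxcr4. The cause was not tested.

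By edgeR 2 genes of 9196 were called higher in B and 0 lower, neither a chemokine gene, with 464 higher and 121 lower at an unadjusted p under 0.05. DESeq2 called 1093 and 99, limma-voom 187 and 7, and the replicate block 0 and 0. Leaving out a library gave 0 to 1 higher and 0 lower. In the lists DESeq2 moved 4 counts from 0 to 1: receptors lower (Cxcr5), and signalling (Plcb2), shedding (Adam17) and early genes (Ier3) higher. The other list counts stayed at 0 under every setting run. No pairing by replicate number was seen: deviations of A and B replicates 1, 2 and 3 had correlations of 0.03, -0.02 and 0.03 across genes, which are not independent. Pairs with unlike numbers ran from -0.05 to 0.04, and values this small do not settle whether libraries were paired. The median over all genes was -0.06 with TMM, -0.16 with RLE and 0.05 with library size alone. It was -0.04 with a stricter filter, and -0.07 to 0.16 with a library left out. Other settings gave higher medians: 0.22 with DESeq2, 0.28 without the filter, 0.48 with the replicate block and 0.87 with limma-voom. Cxcl16 and Cxcr4 had under 100 counts in all 6 and in 3 libraries, so their ratios are imprecise. Cxcl2 had 68 and 76 counts in B replicates 1 and 2, so the size of its ratio is imprecise too.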
